A study of Mus musculus with 10 samples.

Results

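The 10 mouse genes described here, which the colon epithelium uses against luminal microbes, were followed through colon tissue and colon organoids with and without Trp53, the gene of the transcription factor p53. The genes are Reg3b, Reg3g, Dmbt1, Nlrp6, Retnlb, Lcn2, Nos2, Duox2, Duoxa2 and Pigr. All 10 were found on the arrays by their gene names, with 14 probes in all, among 25160 named genes.

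The study set Trp53-deleted (KO) against wild-type (WT) samples. Its title asks how p53 ends regeneration after colitis-like injury. The tissue group held 2 KO and 2 WT male mice taken 2 months after a course of 2% dextran sodium sulfate (DSS), which damages the colon lining, given for 5 to 7 days in the drinking water. In the KO mice the floxed Trp53 alleles (Trp53 fl/fl) were recombined by Axin2CreERT2 after tamoxifen. This Cre is driven from the Wnt target gene Axin2, and a whole-colon sample also holds cells that it does not reach. The labels give neither the mice's ages nor which of these alleles the WT mice carried. The organoids, epithelial cultures grown from colon crypts, came from VillinCreERT2 mice with the same floxed alleles, and KO cultures were made with 800 nM 4OH-tamoxifen for 2 days and then selected in Nutlin-3A, which depletes cells that still have p53. In each organoid group 2 samples were measured, that is for WT and KO in full medium, which holds surrogate Wnt (0.328 nM) and the GSK3 inhibitor CHIR (3 µM) beside R-spondin (25%), which amplifies Wnt signalling, noggin (100 ng/ml) and EGF (50 ng/ml), and for KOWI, which are KO organoids labelled Wnt-independent and grown without surrogate Wnt and CHIR. In comparisons with KOWI, the missing agents, the adaptation and the outgrowth of adapted cells cannot be told apart, and neither can Trp53 loss and the Nutlin-3A selection in KO against WT. Organoids are epithelial: the macrophage gene Adgre1 was well above background in 0 of 4 channels of each organoid group and in 4 of 4 of each tissue group, while Epcam, an epithelial adhesion gene, was detected in all of them. The probes for Ptprc and Ly6g, a general leukocyte and a neutrophil gene, were above background in all organoid channels too, and the neutrophil gene Mpo in 0 channels of either material.

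Each array compared RNA from a pair of samples in the dyes Cy3 and Cy5, and all values below are log2 ratios unless a signal level is named. The 4 tissue arrays held 2 mouse pairs, each in both dye orientations; the 6 organoid arrays joined the 6 samples in a loop. The labels do not say whether the organoid samples came from separate mice or cultures, so the p-values reflect only how far these samples scatter, and that scatter may be technical. Depending on the channel, 44.6% to 59.1% of spots passed the scanner software's test for signal well above background. On the 4 arrays with KOWI, 13.7% to 16.3% of spots were marked as outliers by the scanner software and left out, against 0.808% and 2.18% on the arrays of KO against WT organoids. The same RNA in the same dye also gave other signal levels on those 4 arrays, by over 1 on the log2 scale in every such pair for 5.20% of probes, so organoid samples were compared only through ratios within arrays. The Trp53 probe was well above background in 4 of 4 WT organoid channels and 0 of 4 in KO and in KOWI. The same probe gave log2 KO over WT ratios of -0.46 and 0.04 in the tissue pairs. Whether this probe lies in the deleted exons was not checked.

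The gut epithelium defends itself in layers. Secreted proteins such as the lectins REG3B and REG3G, the scavenger receptor-like glycoprotein DMBT1 and the goblet cell product RELMβ (Retnlb) bind or kill bacteria near the surface, and lipocalin-2 (Lcn2) withholds iron by binding bacterial siderophores. Enzymes make reactive molecules: DUOX2, with its maturation factor DUOXA2, makes hydrogen peroxide, and NOS2 makes nitric oxide. NLRP6 is a cytosolic sensor of the NOD-like family, and the polymeric immunoglobulin receptor (Pigr) carries immunoglobulin A from the tissue into the lumen. Several of these genes are known to be induced by microbes and by cytokines such as interleukin 22.

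In each comparison 8 members could be tested. Retnlb was not well above background in any organoid channel, and in tissue 1 of its 4 spots was an outlier. Reg3b in tissue missed the detection filter, with 3 of 4 channels above background in WT and in KO. In organoids the brighter Lcn2 probe was an outlier on all 4 arrays with KOWI, and the other one was near background.

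Reg3b was high in KO organoids and back near the WT level in KOWI organoids. Reg3b and Reg3g are neighbouring paralogs on chromosome 6, with 92802 bases between them in GRCm38.p6. Their array probes, from mm9 chr6:78323323-78323382 and chr6:78416420-78416479, share no run longer than 6 of 60 bases. The first 30 bases of each probe, which report the 2 genes separately, read as follows.
Reg3b probe: gtgaagactcacctagaaaaagcattttct
Reg3g probe: gagtacagaattgacatcatgggttgatat
The 250 bases before each RefSeq start (GRCm38.p6, chr6:78370635-78370884 on the plus strand for Reg3b and chr6:78468875-78469124 on the minus strand for Reg3g) are shown as a description of the paralogs. Their part in the values below was not tested. Capitals mark the STAT motif TTCNNNGAA, found in the Reg3b window from 129 to 121 bases before the start.
Reg3b promoter: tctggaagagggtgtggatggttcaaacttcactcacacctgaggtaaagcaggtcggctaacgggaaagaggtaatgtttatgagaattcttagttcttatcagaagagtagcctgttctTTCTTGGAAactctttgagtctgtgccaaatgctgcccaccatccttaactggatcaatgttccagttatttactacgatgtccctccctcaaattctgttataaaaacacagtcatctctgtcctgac
Reg3g promoter: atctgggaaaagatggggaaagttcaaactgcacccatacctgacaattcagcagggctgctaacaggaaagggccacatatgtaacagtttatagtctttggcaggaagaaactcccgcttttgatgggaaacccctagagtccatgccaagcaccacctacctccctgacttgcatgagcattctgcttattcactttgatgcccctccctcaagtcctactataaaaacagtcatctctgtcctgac

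In a global alignment these windows had 68.9% identical columns. Promoters were in the RefSeq table for 7 of the 10 members, all but Dmbt1, Nos2 and Retnlb, and 5 motifs were searched on both strands. TTCNNNGAA was in 1 of the 7 and in 7.02% of all 32851 promoter windows of this length. The C/EBP motif TTGCNNAA was in the Lcn2 window (9.56% of all windows), from 216 to 209 bases before its start. The NF-kB motif (1.41%), the TCF/LEF motif CTTTGAA (4.46%) and the p53 half-site (7.13%) were in none of the 7 windows. A match describes these letters only, and the searched motifs did not overlap each other there.

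Relative to the mean of the WT samples, Reg3b was at 0.48 and -0.48 in WT, 3.15 and 2.28 in KO, and 0.75 and -0.13 in KOWI organoids. Both KO samples lay above every other sample, and the KOWI values overlapped those of WT. The probe was well above background in 3 of 4 WT channels and in 4 of 4 in KO and in KOWI. It thus passed the detection filter through KO and KOWI. Reg3b in KO over WT was 6.55-fold (log2 2.71, SE 0.16; 2.67 in replicate 1 and 2.76 in replicate 2), with a limma adjusted p of 0.0645, the smallest of 11340 genes, so it did not pass the threshold of 0.05. Limma called 0 of these genes (0%), with 607 at an unadjusted p under 0.05. Reg3b fell 5.27-fold from KO to KOWI (log2 -2.40, SE 0.16; -2.39 and -2.40 in the replicates, limma adjusted p = 0.0248). Against WT, KOWI was at 0.31 (SE 0.16, limma adjusted p = 0.325).

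The 2 arrays that hold KO and WT alone gave 1.84 (KO replicate 2 over WT replicate 1) and 3.67 (KO replicate 1 over WT replicate 2) for Reg3b, with a mean of 2.76, a value without a test added after the data were seen. The near-equal replicate values above come from solving the loop, since same-numbered samples were never on 1 array. Over 19 alternatives, leaving out 1 sample in turn among them, Reg3b in KO over WT ran from 2.64 to 3.59. It stayed without a call in 15 of the 19 and was called in 4. The fall from KO to KOWI lost its call under 8 of 18 alternatives: without KO replicate 2 (limma adjusted p = 0.135) or KOWI replicate 2 (0.123), without the replicate block (0.0879), without background subtraction (0.0532), with a normexp offset of 0 (0.0602), with outlier spots kept (0.132), with scanner ratios (0.458) and with the authors' value table (0.425). Its value ran from -2.62 to -2.33 over these 18.

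**Figure D1:**
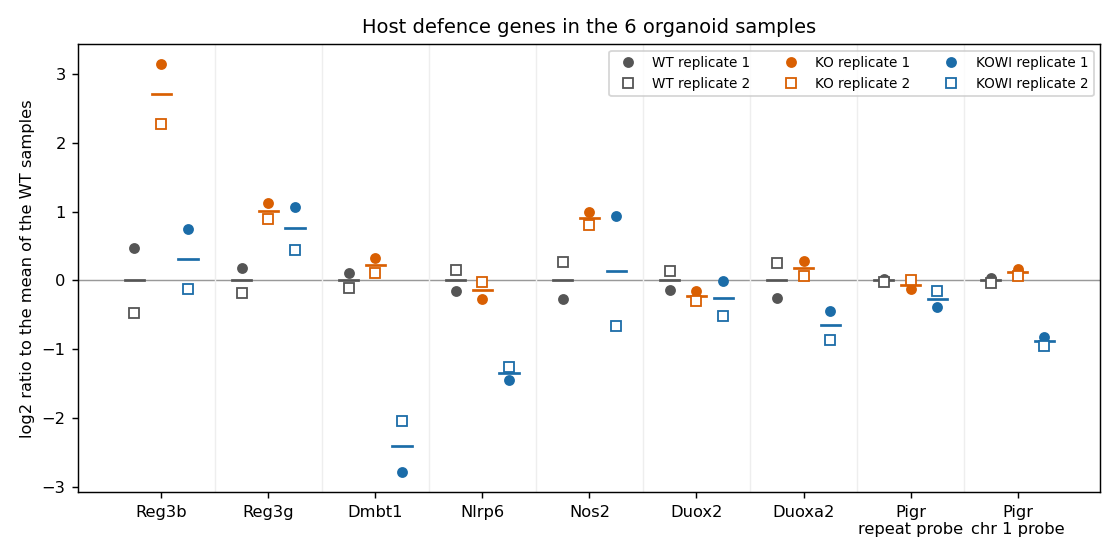
Log2 ratio of each organoid sample to the mean of the WT samples (y axis) for 8 tested genes, with Pigr from both of its probes (x axis); circles are replicate 1, squares replicate 2 and short lines group means. Reg3b stands at 3.15 and 2.28 in KO and near WT in KOWI, whereas Dmbt1 and Nlrp6 are low in both KOWI samples.

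Reg3g, the paralog, was higher in both KO samples and in both KOWI samples than in either WT sample. It stood at 0.19 and -0.19 in WT, 1.12 and 0.90 in KO, and 1.06 and 0.45 in KOWI organoids. No WT channel was well above background for Reg3g, while 4 of 4 were in KO and in KOWI. KO over WT was 1.01 (SE 0.18, 2.02-fold, limma adjusted p = 0.392) and KOWI over WT 0.76 (SE 0.18, limma adjusted p = 0.0770). Because WT was not above background, both ratios are taken against a background signal and their size is uncertain. Over the alternatives KO over WT ran from 0.86 to 2.62 and KOWI over WT from 0.62 to 2.28. Reg3g passed the detection filter in organoids through KO and KOWI alone, the groups where it was high. KOWI over KO was -0.25 (95% interval -0.70 to 0.19), against -2.40 (-2.80 to -1.996) for Reg3b; the difference between the genes was not tested.

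Dmbt1, which binds bacteria and mucins, fell in KOWI organoids. It was at 0.10 and -0.10 in WT, 0.33 and 0.12 in KO, and -2.79 and -2.04 in KOWI, so both KOWI samples lay well below the other 4. KOWI was 5.33-fold below WT (log2 -2.41, SE 0.28, limma adjusted p = 0.0213) and 6.21-fold below KO (log2 -2.63, SE 0.28, limma adjusted p = 0.0420). All 4 arrays with KOWI showed it, with ratios of -2.10 and -2.64 against WT and -2.41 and -2.94 against KO. KO over WT was 0.22 (SE 0.28, limma adjusted p = 1.00).

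Nlrp6 fell in KOWI organoids as well. It was at -0.15 and 0.15 in WT, -0.27 and -0.02 in KO, and -1.45 and -1.26 in KOWI. KOWI was 2.55-fold below WT (log2 -1.35, SE 0.16, limma adjusted p = 0.0217). Against KO, KOWI was at -1.21 (SE 0.16; -1.18 and -1.23 in the replicates), with a limma adjusted p of 0.0585, which does not pass. KO and WT overlapped, with a difference of -0.14 (SE 0.16, limma adjusted p = 1.00).

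These falls were 2 of 8 tested members lower in KOWI than in WT (Dmbt1 and Nlrp6), where 2.04% of 11340 genes were called lower and 5.39% in either direction. Likewise 2 of 8 were lower in KOWI than in KO (Reg3b and Dmbt1), where 0.265% of genes were called lower and 0.432% in either direction. No tested member was called higher in either comparison, against 3.35% and 0.168% of genes. The members were chosen with earlier results of these data known, so these counts beside the shares do not test the group. All 8 values of KOWI over KO were negative (median -0.80, against -0.032 over all genes, of which 44.7% were positive). For KOWI over WT 5 of 8 were negative (median -0.26, against 0.021 over all genes, of which 52.4% were positive). Pigr enters these counts from a repeat probe described below, and Duox2 with -0.03 in KOWI over KO. Leaving out 1 sample ended several calls. Without KOWI replicate 2, Dmbt1 was not called against WT (limma adjusted p = 0.0506) or KO (0.122), and the same held without WT replicate 1 against WT (0.0669) and without KO replicate 2 against KO (0.0915). Nlrp6 against WT lost its call without WT replicate 1 (0.217), WT replicate 2 (0.157), KO replicate 2 (0.154), KOWI replicate 1 (0.0665) or KOWI replicate 2 (0.173). Dmbt1 KOWI over WT ran from -2.91 to -1.95 and Nlrp6 from -1.64 to -1.19 over all alternatives. The same WT and KO RNA gave lower signals for the 3 called members on arrays with KOWI than on arrays of KO and WT. These log2 shifts ran from -0.76 to -0.39 for Dmbt1, -1.46 to -0.67 for Nlrp6 and -1.42 to -0.59 for Reg3b. The values here are ratios within arrays, and the part of the shift in them was not tested.

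**Figure D2:**
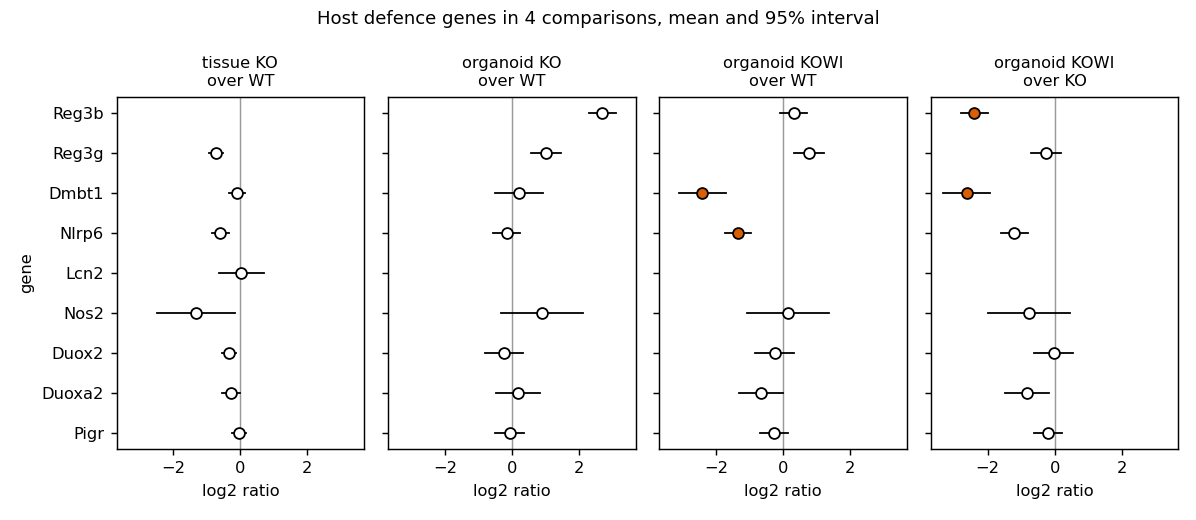
Log2 ratio (x axis) with its 95% interval for each tested gene (y axis) in the 4 comparisons; filled points passed the limma threshold of 0.05 over all genes. The 4 filled points are Dmbt1 and Nlrp6 in KOWI over WT and Reg3b and Dmbt1 in KOWI over KO, all below 0. Pigr is shown from its repeat probe.

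Markers of mature epithelial cells moved in the same samples. Among 10 tested markers of colonocytes, the absorptive cells, limma called 8 lower in KOWI than in WT and 5 lower than in KO. Over all genes 2.04% and 0.265% were called lower in these comparisons. The colonocyte list averaged log2 ratios of -0.67 and -0.73 to WT in KO, and of -2.45 and -2.53 in KOWI. Muc3, a membrane mucin, was at -3.88 in KOWI over WT (SE 0.17, limma adjusted p = 0.00658). Of 13 goblet cell markers, 3 were called lower in KOWI than in WT (Fcgbp, Spdef and Rep15) and 2 lower than in KO (Fcgbp and Rep15), with list means of 0.42 and 0.41 in KO and -0.55 and -0.60 in KOWI. The general epithelial list lay between -0.44 and -0.05 in KO and KOWI; 12 of its 14 tested genes were negative in KOWI over WT and 2 were called lower, Vil1, a microvillus protein gene (-1.23, limma adjusted p = 0.0327), and Krt20, a keratin of mature cells (-1.46, limma adjusted p = 0.0404). Paneth and deep crypt secretory markers averaged 1.23 and 0.19 in KO and -0.50 and -0.01 in KOWI. In KOWI over WT 4 of the 6 tested were positive and 2 negative, with a median of 0.07 and none called. The part of these cell types in the values of Reg3b, Dmbt1 and Nlrp6 was not tested, and fewer cells of a type cannot be told apart from less RNA per cell.

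**Figure D3:**
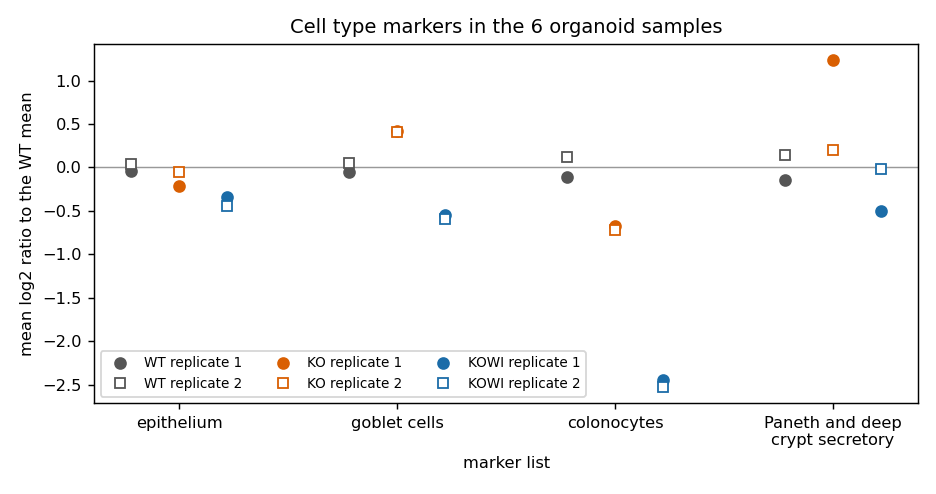
Mean log2 ratio to the WT mean (y axis) of 4 cell type marker lists (x axis) in each organoid sample; circles are replicate 1 and squares replicate 2. Colonocyte markers are at -2.45 and -2.53 in the KOWI samples, and goblet cell markers lie above WT in KO and below it in KOWI.

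The 2 probes named for Pigr gave different values. The brighter probe, chosen by the rule that takes the probe with the highest mean signal, is made of G and A only, is placed by the files on chromosome 9 (mm9 chr9:123832569-123832628) and lists 4 RefSeq transcripts, of Pigr, Zfp811 (named for 2 of them) and Rhox8. Its signal thus cannot be assigned to Pigr alone. The dimmer probe is placed on chromosome 1 (mm9 chr1:132741106-132741165). A stretch of 30 bases from each shows the difference, with the repeat in capitals.
Pigr repeat probe: AAGAAGAAGAAGAAGAAGAAGAAGAAGAAG
Pigr chromosome 1 probe: caagaaatccctgtgtaagaagacaaacca

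On the repeat probe Pigr in KOWI over WT was -0.27 (SE 0.17, limma adjusted p = 0.416). On the chromosome 1 probe, used after the data were seen, Pigr was at 0.04 and -0.04 in WT, 0.17 and 0.06 in KO, and -0.82 and -0.95 in KOWI organoids. Both KOWI samples thus lay below the others. With this probe in place Pigr fell 1.85-fold in KOWI against WT (log2 -0.89, SE 0.16, limma adjusted p = 0.0442). Against KO the value was -1.002 (SE 0.16, limma adjusted p = 0.0742), and KO over WT was 0.12 (SE 0.16). In tissue the chromosome 1 probe gave -0.95 and -0.36 in the pairs, averaging -0.66 (SE 0.19, limma adjusted p = 0.342), against -0.03 and -0.04 on the repeat probe.

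Of the enzymes that make radicals and peroxide, none was called in organoids. Nos2 was at -0.27 and 0.27 in WT, 1.00 and 0.81 in KO, and 0.93 and -0.66 in KOWI. Both KO samples were above both WT samples (0.90, SE 0.49, limma adjusted p = 1.00), while the KOWI samples lay on either side of WT. Its KOWI over WT value of 0.14 turned negative with the scanner software's ratios (-0.34) and with the authors' value table (-0.19). Duoxa2 was at -0.26 and 0.26 in WT, 0.28 and 0.07 in KO, and -0.44 and -0.86 in KOWI, both KOWI samples being lowest. KOWI over KO was -0.83 (SE 0.26, limma adjusted p = 0.251). Duox2, its partner, ran from -0.51 to 0.14 over all 6 samples, with KOWI over KO at -0.03 (95% interval -0.61 to 0.54) on the probe used, which was above background in 2 of 4 KOWI channels. The other Duox2 probes gave -0.20 and -0.38, and the alternatives ran from -0.93 to -0.01, none called. Duox2 and Duoxa2 each lacked 1 organoid array as an outlier and were fitted from the other 5; the genes stand head to head on chromosome 2, with 159 bases between them in GRCm38.p6.

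Lcn2 could not be followed in organoids with outlier spots left out. With them kept, its brighter probe gave KO over WT at 0.02, KOWI over WT at -0.06 and KOWI over KO at -0.08 (SE 0.35 each). WT replicate 1 in Cy3 had a mean signal of 63.7 on its array with KO and 904 on its array with KOWI, a level shift that the Lcn2 probe showed for all 4 repeated RNAs (0.51 to 2.63 on the log2 scale). Retnlb was well above background in 0 of 4 channels of each organoid group, and no ratio is given.

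In colon tissue 2 months after DSS, 7 of the 8 tested members had a negative mean ratio, and none was called. Reg3g and Duox2 passed the detection filter through WT alone, which favours a negative ratio for them. Their probes were above background in 4 of 4 WT channels, and in KO in 2 of 4 for Reg3g and 3 of 4 for Duox2. Pigr enters this count from its repeat probe. Limma called 0 of 13152 genes in tissue (0%), with 1930 at an unadjusted p under 0.05, and the smallest adjusted p over all genes was 0.256. The members' median was -0.31, against -0.0039 over all genes tested. These values are not calls. In simulated data with 2 pairs, this test found 0 of 100 changes planted at a log2 of 1 and 0 of 100 planted at 2. The lack of calls in tissue therefore does not show that the members were unchanged.

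Nos2 had the largest tissue difference among the members. The pairs gave -1.88 and -0.80, averaging -1.34 (SE 0.34, limma adjusted p = 0.325), so the KO mouse was lower in each. Reg3g was at -0.70 and -0.74 (mean -0.72, SE 0.06, limma adjusted p = 0.256), though in pair 2 its KO signal was not well above background. Its dye-swapped arrays gave -0.36 and -1.04 in pair 1 and -0.91 and -0.56 in pair 2. The SE, taken from the pair means, leaves out this spread. Nlrp6 was at -0.67 and -0.54 (mean -0.60, SE 0.07, limma adjusted p = 0.256). Duox2 was at -0.35 and -0.33, and Duoxa2 at -0.37 and -0.19; both were lower in the KO mouse of each pair. Lcn2 had opposite signs, -0.27 and 0.33. Dmbt1 was at -0.17 and -0.06, from a probe with a mean log2 intensity of 17.8. Its dye-swapped arrays had opposite signs in both pairs, 0.15 and -0.48 in pair 1 and 0.32 and -0.44 in pair 2. Retnlb, untested, was at -0.85 in pair 1 and, with the outlier spot kept, at -0.37 in pair 2. Reg3b, also untested, was at -1.60 in pair 1 and -0.0043 in pair 2, where its signal was near background.

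**Figure D4:**
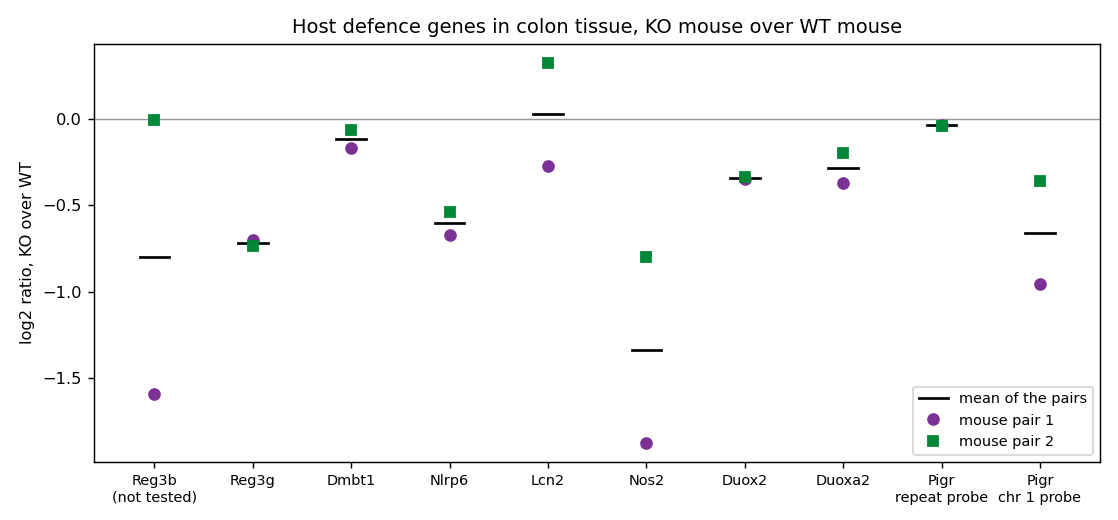
Log2 ratio of KO over WT colon tissue (y axis) for each host defence gene (x axis) in mouse pair 1 (circles) and pair 2 (squares), each the mean of its dye-swapped arrays; short lines are means of the pairs. Nos2, at -1.88 and -0.80, and Reg3g and Nlrp6 are below 0 in both pairs, while Lcn2 lies on either side.

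Cell type markers in the tissue differed in sign between lists, and none was called. Over all 13152 genes tested in tissue 48.8% were positive, with a median of -0.0039. All 15 general epithelial markers were negative in KO over WT (median -0.14), as were 13 of 14 goblet cell (-0.22) and 10 of 12 colonocyte markers (-0.28). All 12 fibroblast markers (0.38) and 12 of 12 tested skeletal muscle markers (0.36) were positive, as were 13 of 14 macrophage markers (0.25). The summed signal of the epithelial list was 1992800 and 1853960 in the WT mice and 1781030 and 1733890 in the KO mice. The part of this in the members' values was not tested.

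For Reg3g, Reg3b and Lcn2 the signal differed more between the mouse pairs than between the genotypes. Reg3g had log2 signal levels of 14.90 (WT) and 14.19 (KO) in pair 1 and of 8.31 and 7.57 in pair 2, so pair 1 was above pair 2 in both genotypes; the KO signal of pair 2 was not above background, and the 97.3-fold between the pairs' means is therefore a lower limit. Reg3b was at 12.28 and 10.69 in pair 1 and 7.78 and 7.78 in pair 2, where 1 array of each mouse was not above background (at 13.1-fold, again a lower limit). Lcn2 was at 13.44 and 13.17 against 10.62 and 10.95 (5.73-fold), and Nos2 at 11.64 and 9.77 against 9.96 and 9.17 (2.20-fold). In each of these both mice of pair 1 were above both mice of pair 2, except that the pair 1 KO mouse was below the pair 2 WT mouse for Nos2. Nlrp6 and Retnlb were the other way round, 1.65-fold and 2.15-fold higher in pair 2 (for Retnlb with the outlier spot kept). Dmbt1 differed by 1.02-fold. The levels come from separate arrays on 1 slide, so pair and array cannot be told apart. The summed signal of the 6 tested markers of Paneth and deep crypt secretory cells also differed between the pairs. It was 398556 and 349749 in pair 1 and 13477.5 and 13830.2 in pair 2, which is 27.4-fold for pair 1 over pair 2. The same ratio was 2.71-fold for the plasma and B cell sum, 1.05-fold for the epithelial sum and 0.948-fold for the neutrophil sum. Such sums are weighted to their brightest genes. The 10 genes with the highest excess in pair 1, chosen after their values were seen, included Reg3g itself (6.60). Others were the lectin Itln1 (7.70), the mast cell protease Mcpt1 (6.45), the matrix protease Mmp7 (6.41) and the antimicrobial ribonuclease Ang4 (5.57). Itln1, Mmp7 and Ang4 are also on the Paneth and deep crypt secretory list, so they repeat its sum. The part of these markers and genes in the members' levels was not tested.

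**Figure D5:**
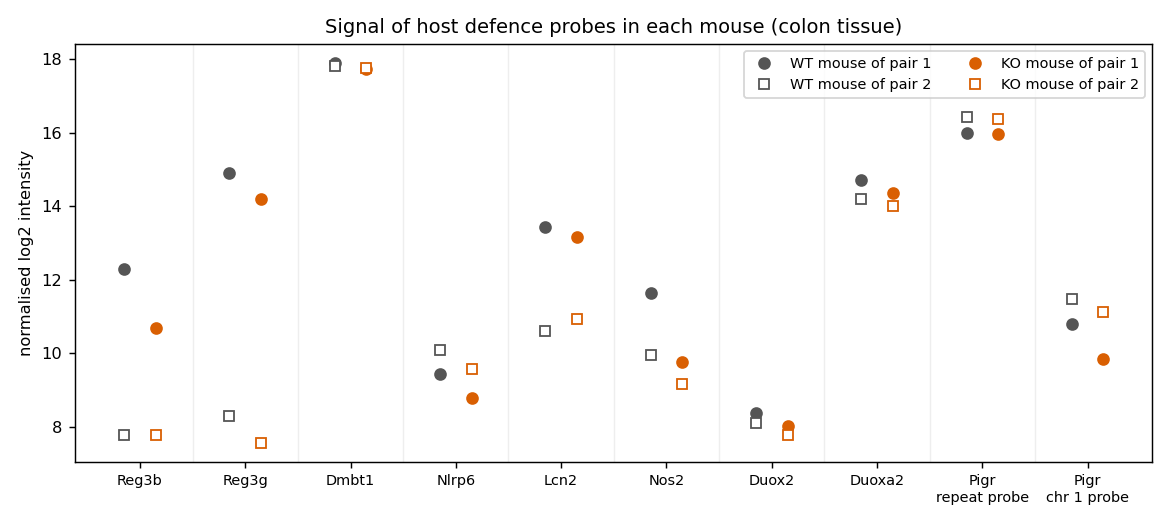
Normalised log2 signal of each host defence probe (x axis) in the 4 mice; circles are pair 1 and squares pair 2, grey WT and orange KO. Reg3g stands at 14.90 and 14.19 in pair 1 and at 8.31 and 7.57 in pair 2, a wider gap than between genotypes. Signals of different probes are not comparable.

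The KO effect pointed in different directions in tissue and organoids for some members. Reg3g was at -0.72 in tissue and 1.01 in organoids, a difference of -1.73 (SE 0.13, limma adjusted p = 0.170 over 10087 genes). The organoid value entering it is the ratio against WT signal not above background. Nos2 was at -1.34 and 0.90, a difference of -2.24 (SE 0.46, limma adjusted p = 0.278). Neither passed; limma called 0 of 10087 genes, with 1238 at an unadjusted p under 0.05. Nlrp6, at -0.60 and -0.14, differed by -0.46 (SE 0.12, limma adjusted p = 0.341). Tissue and organoids also differ in the Cre line, the DSS course, the Nutlin-3A selection and the cell types present, and these cannot be told apart.

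Other genes of the same defences were read from lists of related genes. Of 14 tested antimicrobial peptides and bacteria-binding proteins, 1 was called higher and 1 lower in KOWI over WT. Over all genes 3.35% were called higher and 2.04% lower there. Wfdc2, a secreted protease inhibitor, rose 2.86-fold (log2 1.52, SE 0.16, limma adjusted p = 0.0183), and Lypd8, a membrane-anchored protein that binds bacterial flagella, fell 5.70-fold (log2 -2.51, SE 0.20, limma adjusted p = 0.0108). Lypd8 was also lower in KOWI than in KO, 4.295-fold (log2 -2.10, SE 0.20, limma adjusted p = 0.0311), and 12 of the 14 were negative in that comparison. Of all genes 0.265% were called lower and 44.7% were positive in KOWI over KO. The gut lectin list had no call; Itln1 was at 0.67 in KO over WT and -2.01 in KOWI over KO (SE 0.41, limma adjusted p = 0.109).

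Of 17 tested genes of interleukin 22, 17 and 6 signalling, Osmr, the oncostatin M receptor, was called higher in KOWI than in WT (3.92-fold, log2 1.97, SE 0.20, limma adjusted p = 0.0183). In that comparison 3.35% of all genes were called higher and 2.04% lower. Of 25 Toll-like receptor and NF-kB genes, 19 were positive in KO over WT without a call, where 61.6% of all genes were positive, with the chemokines Cxcl5 at 1.86 (SE 0.19, limma adjusted p = 0.182) and Cxcl1 at 1.32 (SE 0.30). Cxcl5, which attracts neutrophils, was called in KOWI over WT (3.50-fold, log2 1.81, SE 0.19, limma adjusted p = 0.0183). Of 6 tested genes of immunoglobulin A transport and plasma cells, Ccl28, a chemokine that draws IgA-producing cells to mucosa, fell 2.06-fold in KOWI against WT (log2 -1.04, SE 0.19, limma adjusted p = 0.0457). In tissue Ccl28 was at -0.88 and -0.63 in the pairs.

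The inflammasome partners and the oxidase list had no call in any comparison. In tissue 13 of 16 inflammasome partners were negative, where 48.8% of all genes were positive. The DNA sensor Aim2 was at -0.88 (SE 0.15), Naip1, a sensor of bacterial secretion systems, at -0.67 (SE 0.08) and its partner Nlrc4 at -0.46 (SE 0.09). In organoids Casp1, the inflammasome protease, was at -0.46 in KOWI over WT (SE 0.16, limma adjusted p = 0.176). Nox1, the colon's other epithelial oxidase, was at -0.51 and -0.56 in the tissue pairs (limma adjusted p = 0.256) and at 0.86 and 0.01 in the replicates of organoid KO over WT.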

How the data were processed

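Spot intensity in both channels was read by the authors with Agilent Feature Extraction 12.2.0.7, per the file headers (array design 074809, probe coordinates on mm9); the mean and local background intensities analysed here were deposited unnormalized. The deposited log10 ratio is, per the file headers, Cy5 over Cy3 after the software's own background and dye correction. The log2 ratio in the authors' deposited value table comes, per the submitters' processing notes, from limma, with no version or steps given; its slope on the scanner ratios was 0.967 to 0.999, so its scale is log2 and its direction Cy5 over Cy3, while its centring (column medians -0.00058 to 0.0171) stays unknown.

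Ratios were computed with limma 3.58.1 in R 4.3.3: normexp background correction (offset 50), loess within each array, control and outlier spots (non-uniform or population outliers) given no weight and outlier spots set to missing. Of 62976 spots 3671 were controls. A RefSeq table (GRCm38.p6) served for names and neighbours: among 56605 probes, 35405 matched through an accession, 9124 through a symbol, 25 through a synonym and 12051 not at all. Each gene took the brightest probe with signal well above background throughout 1 group or more; a gene is called above where its Benjamini-Hochberg adjusted p over all genes tested is under 0.05. Tissue: dye-swapped arrays averaged to 2 pair ratios, tested against 0 with limma. Organoids: the loop solved by least squares for 6 sample values (1 array may be missing), then a limma fit of group plus replicate number. Every replicate 1 carried Cy3 and every replicate 2 Cy5, so replicate and dye cannot be told apart. Pairs follow co-hybridisation on the arrays. Signal levels of same-numbered mice deviated together (r = 0.746 across genes). These mice shared their arrays, so array effects enter this r and it cannot test the pairing. For same-numbered organoids, which never shared an array, r of the loop values was 0.198, 0.170 and -0.0095. The tissue and organoid r are different quantities and are not comparable. Levels are separate channels after loess and Aquantile. The number of arrays limits the precision. In 1 tissue label the Cy3 source's number differed from the title's, which was used. The scripts were tested on simulated data. There the organoid test found 3 of 100 changes planted at a log2 of 1 and 87 of 100 planted at 2. The tissue test found 0 of 100 at either size. Alternatives covered background, normalization, filter, probe choice, replicate block, arrays taken as independent and leaving out samples. Taking arrays as independent counts repeated arrays of the same samples as replicates. The members and lists were chosen with earlier results of these data known. All members are named; from each list, genes among the 3 smallest p in a comparison or called ones; and Trp53. Organoid RNA was not compared with tissue RNA by level.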

Additional observations from a re-analysis of the deposited data

Results flagged for a closer look

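For 3 members both tissue pairs had a negative and both organoid replicates a positive log2 ratio of KO over WT. The tissue minus organoid difference was -1.73 for Reg3g (95% interval -2.07 to -1.39, limma adjusted p = 0.170), -2.24 for Nos2 (-3.47 to -1.01, limma adjusted p = 0.278) and -0.33 for Dmbt1 (-0.66 to -0.012, limma adjusted p = 0.400). None of the 3 passed the test of the difference. Reg3g was above background in 0 of 4 WT organoid channels, so the size of its organoid ratio is uncertain. The dye-swapped tissue arrays of Dmbt1 had opposite signs in both pairs, so its tissue direction is not settled.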

How the results depend on the processing

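Of 621 alternative values for 39 member results, 554 kept their direction and side of the threshold, 28 lost a call, 18 gained one, 19 changed sign and 2 moved without a test. Dmbt1, Nlrp6 and Reg3b kept their direction in both comparisons with KOWI where they were called. The cause of the changes below was not tested, except that keeping outlier spots or dim probes raised the genes tested to 14747 or 22537.

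For KOWI over KO (49 genes and 2 members called by limma), members called were 0 with no background subtraction, 0 with a normexp offset of 0 (5 genes), 0 with scanner ratios (0 genes, 1408 at an unadjusted p under 0.05), 0 with the authors' value table (4 genes) and 0 with outlier spots kept (0 genes, 1329 at an unadjusted p under 0.05). They were 1 with no filter on dim probes (4 genes), 1 with every channel above background (25 genes), 1 with probes under a log2 intensity of 14, and 4 with arrays taken as independent (2544 genes). For KOWI over WT (611 genes and 2 members), median centring without loess gave 227 genes and 1 member, scanner ratios 134 and 1, the authors' table of values gave 275 genes and 1 member, outlier spots kept 6 and 0, no filter 262 genes, and independent arrays 4211 and 6. For organoid KO over WT (0 genes), probes under 14 gave 1 gene and 1 member, Reg3b, and independent arrays 710 and 2. For tissue (0 genes), median centring gave 895 genes and 3 members (Reg3g, Nlrp6 and Nos2), and independent arrays 601 and 1 (Nlrp6).

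Leaving out 1 organoid sample in turn gave 0 to 14 genes and 0 to 1 members for KO over WT, 0 to 802 genes and 0 to 2 members for KOWI over WT, and 0 to 214 genes and 0 to 3 members for KOWI over KO; in tissue it gave 0 genes and 0 members, with 395 to 939 at an unadjusted p under 0.05.

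Without the replicate block, limma called 0 genes in organoid KO over WT (406 at an unadjusted p under 0.05), 438 genes and 2 members in KOWI over WT, and 40 genes and 1 member, Dmbt1, in KOWI over KO. With separate tissue channels it called 0 genes and 0 members with the block (1933 at an unadjusted p under 0.05) and without it (773).

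Signs changed as follows. Tissue Lcn2 was -0.020 with median centring, -0.0047 with scanner ratios, and -1.38 and -1.08 without WT replicate 2 and KO replicate 1 (separate channels, unpaired). In that fit tissue Pigr was 0.18 without either of these, and tissue Reg3g 2.57 and 2.59 without WT replicate 1 and KO replicate 2. Nos2 KOWI over WT was -0.34 with scanner ratios, -0.19 with the value table, and from -0.73 (without KOWI replicate 1) to 1.04 (without KOWI replicate 2) with 1 sample left out, at -0.56 without WT replicate 1. Nos2 KOWI over KO ran from -1.67 (without KOWI replicate 1) to 0.10 (without KOWI replicate 2). Pigr KO over WT was 0.026 as a mean of its probes, 0.12 with probes under 14 or the chromosome 1 probe (chosen after seeing the data), and from -0.15 to 0.071 with 1 sample left out. With 1 sample left out, Duox2 KO over WT was 0.17 without WT replicate 2 and ran from -0.22 (without KOWI replicate 1) to 0.24 (without KOWI replicate 2); over all alternatives its lowest value was -0.53. Signal near background limits Reg3g in WT organoids and Duox2 in KOWI.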
